A study of Mus musculus with 6 samples.

Results

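The unfolded protein response and the ATF4 stress response were followed through 32 genes listed by symbol. The list was chosen with earlier results of these data known. It covers the sensors and transcription factors, the chaperones of the endoplasmic reticulum (ER), the ER-associated degradation machinery and the targets of ATF4. Of the 32 genes, 30 had a row among the 14490 genes of the deposited mRNA-seq table, and Asns and Nupr1 were not analysed here. The 30 genes were divided by role into 6 sensors, factors and regulators, 13 ER chaperones and folding factors, 5 genes of ER-associated degradation and translocation, and 6 ATF4 targets. The samples were splenic NK cells of C57BL/6 mice, purified by fluorescence-activated cell sorting. All mice carried Mettl3 alleles flanked by loxP sites (Mettl3fl/fl). The WT group had no Cre (n = 3), and the cKO group also carried Cre at the Ncr1 locus, which encodes the NK receptor NKp46 (Ncr1Cre-Mettl3fl/fl, n = 3). METTL3 is the catalytic subunit of the enzyme that places N6-methyladenosine on mRNA. The question was how the expression of these stress genes differed between cKO and WT NK cells, and how the ER chaperones compared with the ATF4 targets. The methods of the study give 1 age range, in weeks, for all its mice and no age for each sample. Nothing in the labels said that samples of a genotype came from separate mice, so p-values measure the spread between these samples only.

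When unfolded proteins accumulate in the ER, sensors in its membrane are activated. IRE1 alpha, encoded by Ern1, splices the mRNA of the transcription factor XBP1, ATF6 is cut to release a transcription factor, and PERK, encoded by Eif2ak3, phosphorylates the initiation factor eIF2 alpha. Phosphorylated eIF2 alpha lowers translation in general and raises that of ATF4, which induces genes of amino acid supply, redox defence and, under lasting stress, cell death. XBP1 and ATF6 mainly induce chaperones, folding enzymes and degradation factors of the ER, which secretory lymphocytes need to fold their granule proteins and cytokines.

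All values below are normalized counts, the counts of a gene divided by the size factor of its sample. Between 55965515 and 71464042 reads fell on the listed genes per sample, taking the smallest step between the values of a sample as 1 read. Mettl3, the deleted gene, had normalized counts of 1303, 1258 and 1192 in WT and of 297, 299 and 405 in cKO, −1.92 on the log2 scale (limma adjusted p = 2.32e-14). All 11 NK cell markers had a row, at a median of 15450 normalized counts per kb of exon. Of these, 2 were higher in cKO (Tbx21 and Il2rb) and 6 were lower, among them Ncr1, whose locus carries the Cre (log2 fold change −0.40, limma adjusted p = 3.56e-11), Nkg7 (−0.34, 1.03e-08) and Klrb1c (−0.27, 8.07e-08). Among markers of other cells, 7 of 12 B cell genes were higher in cKO and 0 were lower (limma, 7 with an unadjusted p under 0.05). Sums over the list were 18316 to 18647 in WT and 18425 to 19399 in cKO. A sum weights abundant genes, and the median log2 fold change of the B cell genes was 0.42, at a median of 218 normalized counts. Of 8 T cell genes 1 was higher and 3 were lower, with sums of 15696 to 17104 and 11721 to 12418. Of 9 myeloid genes 2 were higher and 2 lower (sums of 65103 to 66086 and 64586 to 66614), and of 5 erythroid genes 0 were called (limma, 1 with an unadjusted p under 0.05; sums of 811 to 870 and 684 to 832). WT and cKO samples lay at opposite ends of the first principal component (41.5% of the variance), with no sample apart from its genotype on it.

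Some promoters of the genes hold short elements through which these factors are known to act, and these elements are shown first. An ERSE lay in 7 of the 11 chaperones with a window, and a CARE or CRE in 3 of the 6 ATF4 targets. The windows are RefSeq sequence of GRCm38.p6, from 250 bases before to 50 bases after each start site, and 26 of the 30 genes had one. Atf6, Ppp1r15b, Hyou1 and Manf were named only. The ER stress response element (ERSE) was searched on both strands as CCAAT and CCACG with 9 bases of any kind between them. It was found in 8 of the 26 genes, 7 of them chaperones and 1 of them the ubiquitin ligase gene Syvn1, against 0.172% of the 9908 listed genes with a window. Each line below gives 30 bases 5′ to 3′ along the gene's own strand, with the CCAAT and CCACG parts, or their complements ATTGG and CGTGG, in capitals.
Hspa5 (chr2:34772020-34772049, plus strand, 65 bases before the start): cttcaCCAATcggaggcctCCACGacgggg
Hsp90b1 (chr10:86705527-86705556, minus strand, 107 bases before the start): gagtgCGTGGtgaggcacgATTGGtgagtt
Hsp90b1, second copy (chr10:86705632-86705661, minus strand, 212 bases before the start): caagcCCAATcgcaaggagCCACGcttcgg
Calr (chr8:84847069-84847098, minus strand, 162 bases before the start): caacgCGTGGtcgaccctcATTGGcccata
Canx (chr11:50325794-50325823, minus strand, 145 bases before the start): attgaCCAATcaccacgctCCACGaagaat
Pdia6 (chr12:17266486-17266515, plus strand, 98 bases before the start): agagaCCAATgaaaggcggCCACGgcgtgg
Dnajc3 (chr14:118937822-118937851, plus strand, 105 bases before the start): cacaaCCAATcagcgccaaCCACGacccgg
Creld2 (chr15:88819515-88819544, plus strand, 126 bases before the start): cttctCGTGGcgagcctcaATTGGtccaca
Syvn1 (chr19:6046527-6046556, plus strand, 44 bases before the start): cgcaaCCAATcggcggtagCCACGggaaca

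The related ERSE-II, with ATTGG and CCACG 1 base apart, was searched on both strands and was found in Herpud1 alone among the 26 genes and in 0.0807% of all genes. The C/EBP-ATF response element (CARE), which ATF4 binds together with C/EBP proteins, was found in Herpud1, Trib3 and Chac1 and in 2.77% of all genes. The cyclic AMP response element (CRE) was found in Ppp1r15a and in 3.70% of all genes. The core of the XBP1-bound unfolded protein response element (UPRE) was found in 0 of the 26 genes and in 1.03% of all genes. Herpud1 was the only one of these genes with both an ER stress element and a CARE, and these did not overlap. Capitals mark the fixed letters of the element, which for the 3 CARE matches lies on the opposite strand.
Herpud1, ERSE-II (chr8:94386368-94386397, plus strand, 52 bases before the start): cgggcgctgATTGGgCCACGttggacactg
Herpud1, CARE (chr8:94386306-94386335, plus strand, 112 bases before the start): accacggcgggTTgCATCAgcccgcacccc
Trib3, CARE (chr2:152344028-152344057, minus strand, bases 15 to 22 counted from the start): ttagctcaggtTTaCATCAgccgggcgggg
Chac1, CARE (chr2:119351038-119351067, plus strand, 193 bases before the start): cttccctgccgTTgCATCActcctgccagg
Ppp1r15a, CRE (chr7:45526262-45526291, minus strand, 12 bases before the start): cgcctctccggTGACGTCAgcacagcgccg

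Of the 30 stress genes, 16 were called as different in cKO NK cells (limma adjusted p under 0.05), against 36.6% of all genes. Of these, 7 were higher in cKO, against 17.8% of all genes, and 9 were lower, against 18.8%. In 17 genes the cKO and WT samples did not overlap, against 45.7% of all genes. The changes were small. The median log2 fold change of the 30 genes was −0.0049 beside 0.0014 for all genes, and the median size of the change was 0.1145 on the log2 scale beside 0.1666. The 95% confidence interval lay within 0.5 of 0 for 26 of the 30 genes, against 61.8% of all genes. The 30 genes were also more abundant, with a median of 7374 normalized counts beside 880 for all genes. Their median SD within genotypes was 0.048 on the log2 scale, beside 0.090 for all genes. The shares above were not compared with genes of like level. With the fold limit of the study (a change of more than 1 on the log2 scale at an unadjusted p under 0.05) 0 of the 30 genes were called by limma, against 1.75% of all genes. Without the fold limit 19 had an unadjusted p under 0.05, and limma-voom also called 0 with the limit. When totals were made equal across samples instead of using the size factors, 12 genes were higher and 6 lower. Over all 14490 genes 3487 were then higher and 2016 lower, and the median moved to 0.0508. Because each genotype had 3 samples, an exact permutation test of a single gene could not give a two-sided p below 0.1, and genes whose samples did not overlap reached that value.

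**Figure D1:**
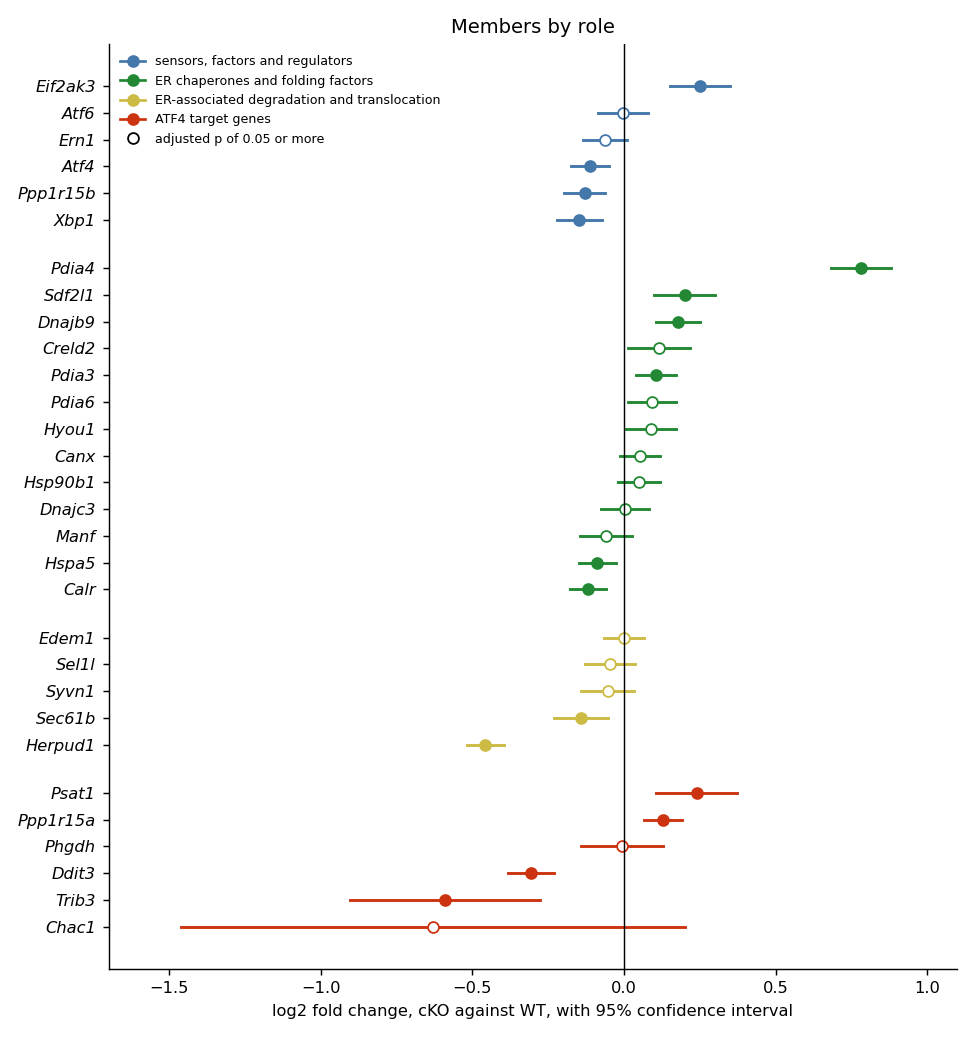
Log2 fold change of cKO against WT NK cells for the 30 genes with a row, grouped and coloured by role, with 95% confidence intervals from limma. Filled points had an adjusted p under 0.05, and Pdia4 at 0.78 and Chac1 at −0.63 mark the ends of the range.

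Among the 6 sensors, factors and regulators, 1 rose and 3 fell in cKO NK cells, against 17.8% and 18.8% of all genes. Their median log2 fold change was −0.0868. The gene that rose was Eif2ak3, and those that fell were Xbp1, Atf4 and Ppp1r15b. Eif2ak3, which encodes the eIF2 alpha kinase PERK, had normalized counts of 2174, 2359 and 2392 in WT and of 2747, 2799 and 2690 in cKO. The genotypes did not overlap, and the log2 fold change was 0.25 (SE 0.0481, limma adjusted p = 0.000151). Its exons share 485 bases with Gm43292, a gene model on the opposite strand with means of 10.8 in WT and 23.8 in cKO. Whether counting used strand was not stated, and reads of the overlap cannot be told apart without it.

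Of the transcription factor genes of the response, Xbp1 and Atf4 fell slightly and Atf6 was not called. Xbp1 had normalized counts of 8062, 8278 and 8385 in WT and of 7445, 7776 and 7127 in cKO. All cKO samples were below all WT samples, with a log2 fold change of −0.15 (SE 0.0368, limma adjusted p = 0.00245). The table counts the gene as a whole and does not separate spliced from unspliced Xbp1. Atf4 was among the most highly expressed genes, with 84855, 82458 and 82656 normalized counts in WT and 77436, 79337 and 74528 in cKO. Its genotypes did not overlap, with a log2 fold change of −0.11 (SE 0.0302, limma adjusted p = 0.00435), but under scaling to equal totals it was −0.06 (limma adjusted p = 0.065). ATF4 protein is set largely by translation, which these data do not measure.

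Ppp1r15b encodes the constitutive subunit that directs protein phosphatase 1 to eIF2 alpha. It had normalized counts of 18673, 18735 and 17482 in WT and of 16635, 16788 and 16728 in cKO, a log2 fold change of −0.13 (SE 0.0324, limma adjusted p = 0.00234). The cKO samples lay close together below all WT samples. Exons of Ppp1r15b share 640 bases with Gm26616, a gene model on the opposite strand with means of 33.2 in WT and 37.6 in cKO. Ern1 had 9284 ± 292 normalized counts in WT and 8897 ± 260 in cKO (SD, n = 3), and its 95% interval ran from −0.13 to 0.01 on the log2 scale. Atf6 had 4019 ± 91.4 and 4009 ± 95.2, with an interval from −0.09 to 0.08, and the samples of both genes overlapped.

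Of the 13 ER chaperones and folding factors, 4 rose (Pdia4, Sdf2l1, Dnajb9 and Pdia3) and 2 fell (Calr and Hspa5), against 17.8% and 18.8% of all genes. Their median log2 fold change was 0.0889. The genotypes did not overlap in 8 genes, against 45.7% of all genes. Of these 8, 6 were higher in cKO and 2 lower, where 22.7% and 23% of all genes did not overlap in these directions. The most abundant chaperones were the ones that fell. Under scaling to equal totals 9 chaperones were higher and 1, Calr, was lower. With that scaling 3487 of all 14490 genes were higher and 2016 lower, so part of this count is a shift shared by all genes.

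Pdia4 showed the largest rise of the 30 genes. It encodes ERp72, a protein disulfide isomerase that forms and rearranges disulfide bonds, and lies at chr6:47796141-47813430 on the minus strand (GRCm38). Normalized counts were 2816, 2703 and 2574 in WT and 4740, 4890 and 4297 in cKO. Every cKO sample was far above every WT sample, and the level rose 1.72-fold (log2 fold change 0.78, SE 0.0481, 95% interval 0.68 to 0.88, limma adjusted p = 8.75e-13). No ERSE of the form searched lay in its promoter window.

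The other chaperones that rose changed much less. Sdf2l1, which encodes a cofactor of the BiP chaperone complex, had normalized counts of 1920, 2011 and 1956 in WT and of 2327, 2223 and 2211 in cKO (log2 fold change 0.20, SE 0.0489, limma adjusted p = 0.00192). Dnajb9, whose product ERdj4 is a J-domain partner of BiP, had 9137, 9346 and 8953 in WT and 10422, 10728 and 9896 in cKO (log2 fold change 0.18, SE 0.0355, limma adjusted p = 0.000242). Pdia3, which encodes ERp57, the disulfide isomerase that works with calreticulin and calnexin, had 19210, 18771 and 18167 in WT and 19508, 20876 and 20044 in cKO. In none of these 3 genes did the genotypes overlap. The log2 fold change of Pdia3 was 0.11 (SE 0.0328, limma adjusted p = 0.0122), and the call was lost without WT 3 or without cKO 2 (limma adjusted p = 0.0749 and 0.0793).

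Hspa5 encodes BiP, the ER member of the HSP70 family and the classical reporter of the unfolded protein response. It had 150012, 146961 and 144836 normalized counts in WT and 138069, 142201 and 135533 in cKO. All cKO samples were below all WT samples, but the log2 fold change was only −0.09 (SE 0.03, limma adjusted p = 0.0229). The call was lost under scaling to equal totals (−0.04, limma adjusted p = 0.258) and without WT 1, cKO 1 or cKO 3 (limma adjusted p = 0.0899, 0.101 and 0.102). Calr encodes calreticulin, the soluble lectin chaperone, and had 50724, 50840 and 49671 normalized counts in WT and 46456, 47533 and 45288 in cKO. Here too no cKO sample reached the WT range, with a log2 fold change of −0.12 (SE 0.0294, limma adjusted p = 0.0021).

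The remaining 7 chaperones did not pass the test, and their log2 fold changes lay between −0.06 for Manf and 0.12 for Creld2. Canx, the membrane-bound counterpart of calreticulin, had 10378, 10400 and 10067 normalized counts in WT and 10644, 10802 and 10553 in cKO (log2 fold change 0.05, limma adjusted p = 0.217). Hyou1, an HSP110-type nucleotide exchange factor of BiP, had 5350, 4882 and 5157 in WT and 5555, 5376 and 5426 in cKO (log2 fold change 0.09, limma adjusted p = 0.0814). In both genes the cKO samples were all above the WT samples. Hsp90b1, which encodes GRP94, overlapped at 15890 ± 598 and 16439 ± 453 (SD, n = 3), as did Pdia6 at 7315 ± 353 and 7796 ± 276, Creld2 at 2254 ± 136 and 2442 ± 45.8, Dnajc3 at 7183 ± 144 and 7201 ± 363, and Manf at 4376 ± 45.7 and 4200 ± 213. Under scaling to equal totals Hsp90b1, Canx, Pdia6, Hyou1 and Creld2 passed the test, all higher in cKO.

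The chaperones thus shifted relative to each other. The ratio of Pdia4 to Hspa5 was 0.0183 ± 0.000504 in WT and 0.0335 ± 0.00153 in cKO (SD, n = 3), and that of Calr to Canx was 4.90 ± 0.0265 and 4.35 ± 0.0555. Neither ratio depends on the scaling of the samples, and neither overlapped between genotypes. Summed over the 13 genes, normalized counts were 277485 to 287858 in WT and 271263 to 283985 in cKO, which overlapped. Hspa5 was the largest part of that sum, and without it the sums were 132648 to 137846 and 135730 to 141785, which also overlapped.

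Plasma cells are rich in ER chaperones, and their markers were examined beside these genes. Of 8 plasma cell genes with a row, 2 were higher in cKO and 1 lower, and the summed list ran from 12427 to 12586 in WT and from 17264 to 18045 in cKO. Most of this sum came from Txndc5 and Prdm1, and bulk RNA does not show which cells these reads came from. Jchain had 130 ± 10.6 normalized counts in WT and 134 ± 16.8 in cKO, and Mzb1 had 31.4 ± 7.29 and 39.2 ± 7.98 (SD, n = 3), both overlapping. Sdc1 had 17.9, 23.8 and 19.5 in WT and 26.4, 35.4 and 31.1 in cKO, without overlap (log2 fold change 0.58, limma adjusted p = 0.253). Irf4 was at 0.13 and Derl3 at −0.67 on the log2 scale, and neither was called (limma adjusted p = 0.183 and 0.266). Igha fell from 77.1 ± 24.3 to 32.4 ± 13.1 (limma adjusted p = 0.00311). The part of plasma cell RNA in the chaperone differences was not tested.

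**Figure D2:**
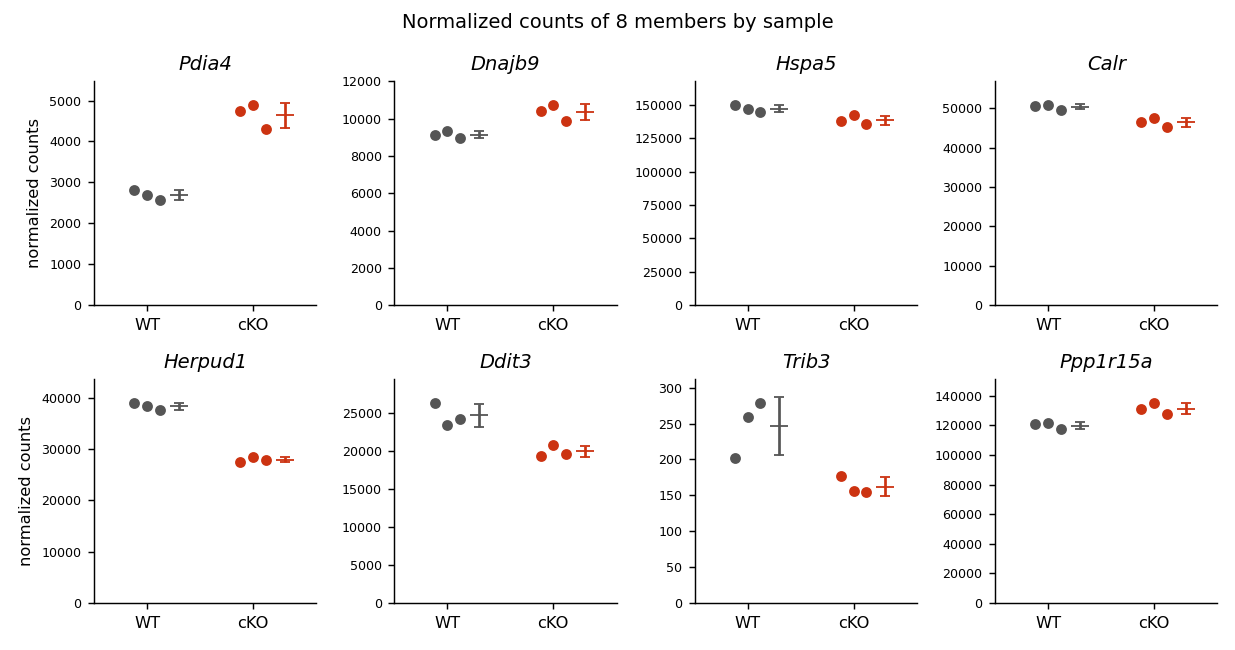
Normalized counts of 8 genes in each WT sample (grey) and cKO sample (red), on linear axes from 0, with the mean and SD of 3 samples beside the points. The genotypes do not overlap in any of the 8 panels: Pdia4, Dnajb9 and Ppp1r15a are higher in cKO, and Hspa5, Calr, Herpud1, Ddit3 and Trib3 are lower.

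Of the 5 genes of ER-associated degradation and translocation, 0 rose and 2 fell (limma, both with an unadjusted p under 0.05). Of all genes, 17.8% rose and 18.8% fell. The median log2 fold change of the 5 genes was −0.0537. Herpud1 encodes HERP, a membrane protein of the ubiquitin ligase complex that retrotranslocates misfolded proteins, and lies at chr8:94386438-94395377 on the plus strand. Normalized counts were 39084, 38456 and 37719 in WT and 27582, 28491 and 27869 in cKO. The genotypes were widely separated and tightly grouped, and the level fell by 27.2% (log2 fold change −0.46, SE 0.0295, 95% interval −0.52 to −0.40, limma adjusted p = 2.22e-12). Its promoter is the one that held both an ERSE-II and a CARE. Herpud1 fell relative to the ERSE gene Hspa5 as well, with a ratio of 0.261 ± 0.000688 in WT and 0.202 ± 0.00322 in cKO (SD, n = 3).

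Sec61b, a subunit of the channel through which nascent proteins enter the ER, had normalized counts of 3962, 4303 and 3936 in WT and of 3686, 3788 and 3577 in cKO. The genotypes did not overlap, and the log2 fold change was −0.14 (SE 0.0434, limma adjusted p = 0.0111). The call was lost under scaling to equal totals (limma adjusted p = 0.0858) and without WT 2 or cKO 3 (limma adjusted p = 0.0912 and 0.0577). Edem1, which directs misfolded glycoproteins to degradation, was nearly identical between genotypes, with 8695 ± 60.4 normalized counts in WT and 8695 ± 43.5 in cKO (SD, n = 3) and a 95% interval from −0.07 to 0.07. The ligase gene Syvn1 had 4503 ± 201 and 4338 ± 171, and Sel1l, which encodes its partner, had 4497 ± 136 and 4356 ± 144, with overlapping samples in both.

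Of the 6 ATF4 targets, 2 rose (Psat1 and Ppp1r15a) and 2 fell (Ddit3 and Trib3), against 17.8% and 18.8% of all genes. Their median log2 fold change was −0.1566. The median was −0.0062 when Chac1, which had few counts, was removed by a filter of 1 CPM in 3 samples. The genes that fell encode CHOP and its partner TRIB3, which are linked to cell death under lasting stress. Those that rose encode an enzyme of serine synthesis and GADD34, the inducible counterpart of Ppp1r15b.

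Ddit3 encodes the transcription factor CHOP and lies at chr10:127290774-127296288 on the plus strand. Normalized counts were 26376, 23463 and 24290 in WT and 19411, 20794 and 19670 in cKO. All cKO samples were below all WT samples, a fall of 19.2% (log2 fold change −0.31, SE 0.0371, 95% interval −0.38 to −0.23, limma adjusted p = 2.42e-07). It fell further than Atf4, and the ratio of Ddit3 to Atf4 was 0.296 ± 0.0133 in WT and 0.259 ± 0.00718 in cKO (SD, n = 3), without overlap. The annotation holds a second, overlapping gene model of the same name, and 68 exonic bases are shared with Mars on the opposite strand, whose log2 fold change was 0.06 (limma adjusted p = 0.293).

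Trib3, a pseudokinase that CHOP and ATF4 induce, was expressed at a low level, with normalized counts of 202, 259 and 279 in WT and of 177, 155 and 155 in cKO. The genotypes did not overlap, and the level fell by 33.6% (log2 fold change −0.59, SE 0.152, limma adjusted p = 0.0031). The WT samples varied among themselves, and the ratio of Trib3 to Ddit3 overlapped at 0.0101 ± 0.00211 and 0.00815 ± 0.000858 (SD, n = 3). Chac1, a glutathione-degrading enzyme downstream of ATF4, had only 33.8, 38.1 and 23.4 normalized counts in WT and 27.5, 12.7 and 21.9 in cKO. Its samples overlapped, and with a 95% interval from −1.46 to 0.20 on the log2 scale a change was not detectable at this depth (limma adjusted p = 0.24).

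Ppp1r15a had the highest level per kb of the 30 genes. Normalized counts were 120834, 121676 and 117459 in WT and 130834, 135383 and 127739 in cKO. All cKO samples were above all WT samples, with a log2 fold change of 0.13 (SE 0.0304, limma adjusted p = 0.00128), so that the inducible and the constitutive eIF2 alpha phosphatase subunits moved in opposite directions. The ratio of Ppp1r15a to Ppp1r15b was 6.56 ± 0.137 in WT and 7.86 ± 0.214 in cKO (SD, n = 3), without overlap. Exons of Ppp1r15a share 12 bases with Tulp2 on the opposite strand, with means of 661 in WT and 1024 in cKO (limma adjusted p = 4.95e-07). Ppp1r15a is also an early-response gene, so a list of 13 genes induced by cell handling was examined beside it. Of these, 6 were higher and 3 lower in cKO, and their summed normalized counts were 2943570 to 3010860 in WT and 3075280 to 3169830 in cKO. Fos rose from 95998 ± 3058 to 169891 ± 4713 and Dusp1 from 181120 ± 4445 to 260907 ± 5455, whereas Fosb fell from 656782 ± 5740 to 559615 ± 5508 (SD, n = 3). The part of these genes in the difference of Ppp1r15a or of the other stress genes was not tested.

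The enzymes of serine synthesis did not move together. Psat1, phosphoserine aminotransferase, had normalized counts of 1422, 1335 and 1493 in WT and of 1751, 1789 and 1489 in cKO, a log2 fold change of 0.24 (SE 0.0653, limma adjusted p = 0.00484). It was the one gene of the 16 whose genotypes overlapped, since cKO 3 lay just below WT 3. Phgdh, the first enzyme of the same pathway, had 1808 ± 175 and 1799 ± 156 (SD, n = 3), with a 95% interval from −0.14 to 0.13.

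ER chaperones and ATF4 targets were then set side by side, sample by sample. The mean over the 13 chaperones of the log2 difference from the WT mean was 0.03, −0.01 and −0.03 in the WT samples and 0.09, 0.14 and 0.09 in the cKO samples. For the 6 ATF4 targets it was 0.01, 0.05 and −0.06 in WT and −0.08, −0.25 and −0.24 in cKO. The chaperone mean was thus above, and the ATF4 target mean below, all WT samples in every cKO sample. Both means leaned on single genes. Without Pdia4 the chaperone means were −0.0237 to 0.0299 in WT and 0.0323 to 0.0823 in cKO. The genotypes were then barely apart, by less than the spread among the WT samples. Without the sparse gene Chac1 the ATF4 target means were −0.01 to 0.01 and −0.19 to −0.06, also without overlap. That mean still held Trib3, a further gene of low counts, at −0.59 on the log2 scale. Ddit3 was at −0.31, Phgdh at −0.01, Ppp1r15a at 0.13 and Psat1 at 0.24. Under scaling to equal totals Trib3 was at −0.54, Ddit3 at −0.26, Phgdh at 0.04, Ppp1r15a at 0.18 and Psat1 at 0.29. A fall of the ATF4 targets apart from Chac1 and Trib3 was therefore not shown. Means without both Chac1 and Trib3, or with totals made equal, were not computed. Neither role moved as a block, since each held genes that rose and genes that fell.

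**Figure D3:**
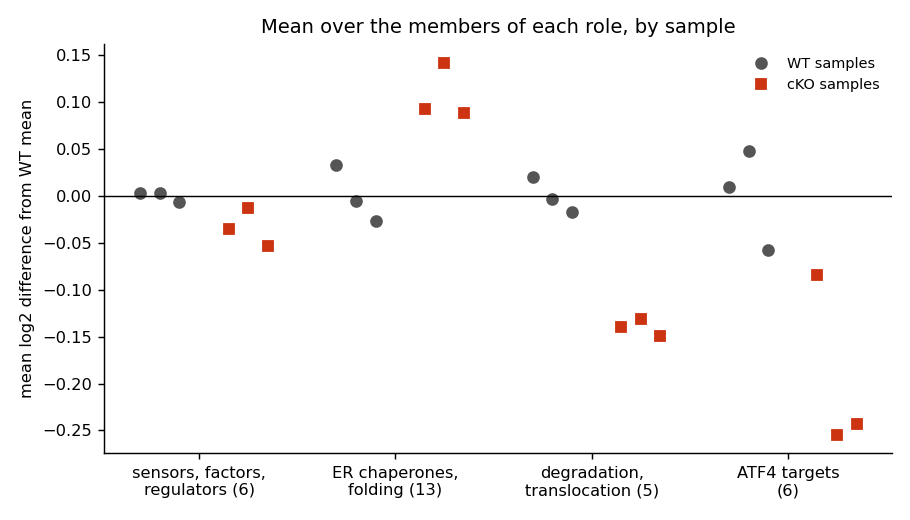
Mean over the genes of each role of the log2 difference from the WT mean, with 1 point for each WT sample (grey circles) and cKO sample (red squares) and the number of genes in brackets. With the size factors, the cKO samples lie above WT for ER chaperones (0.09 to 0.14) and below WT for the other roles. The cKO range is −0.25 to −0.08 for ATF4 targets and −0.15 to −0.13 for degradation and translocation. For the sensors it is −0.0533 to −0.0127, beside −0.0065 to 0.0034 in WT. The means were not computed with totals made equal. Under that scaling Eif2ak3 was at 0.30, Atf6 at 0.05 and the other sensors between −0.10 and −0.01.

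Summed normalized counts, which weight each gene by its level, were also compared. The ATF4 targets summed to 148202 ± 2853 in WT and 154935 ± 4735 in cKO (SD, n = 3), a sum made up mostly of Ppp1r15a, and the genotypes overlapped. The degradation and translocation genes summed to 60182 ± 926 and 49053 ± 502, a fall of 18.5% that came mostly from Herpud1. The mean log2 difference of this role also leaned on Herpud1. Without it the mean was −0.0146 to 0.0195 in WT and −0.0704 to −0.0554 in cKO. All 30 genes together took up 0.917% to 0.941% of the normalized counts in WT and 0.92% to 0.944% in cKO, which overlapped.

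Levels between genes were compared per kb of exon. Ppp1r15a (42783 normalized counts per kb), Atf4 (34017) and Hspa5 (33799) were above 99% of all listed genes, followed by Calr (16812), Herpud1 (14231) and Ddit3 (13038). The lowest were Chac1 (16.0) and Trib3 (96.2), and the median of the 30 genes was 1811 beside 237 for all listed genes. In bulk RNA, a change in the share of NK cells that express a gene and a change in its level per cell cannot be told apart.

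**Figure D4:**
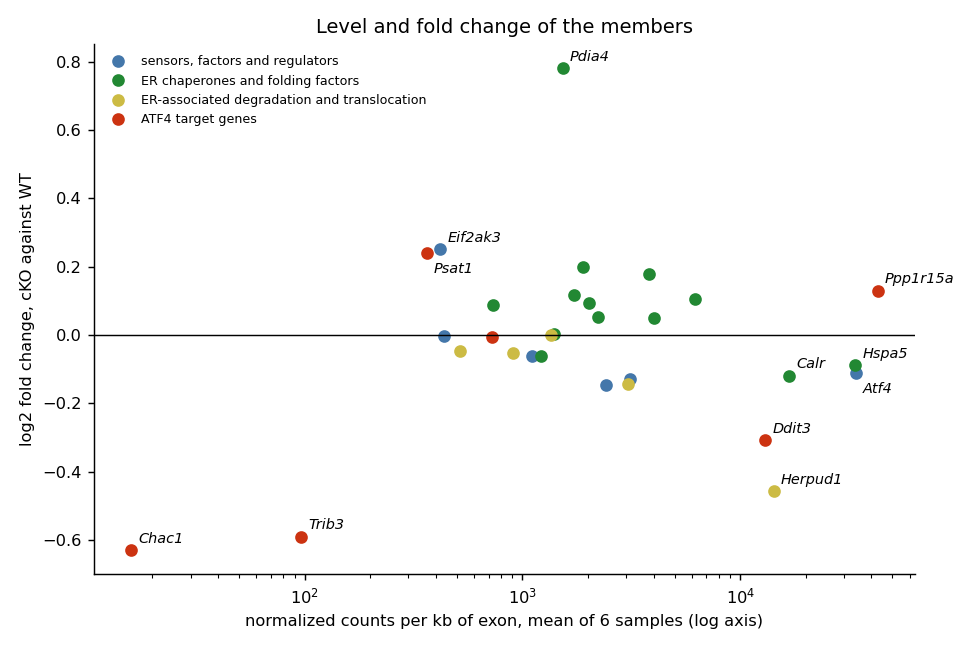
Log2 fold change of cKO against WT plotted against the mean level in normalized counts per kb of exon (log axis) for the 30 genes, coloured by role. The 6 most abundant genes, from Ddit3 at 13038 to Ppp1r15a at 42783, include 5 that were lower in cKO, and Pdia4 stands alone at the top with 0.78.

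The calls were also counted by promoter element, without a test. Of the 9908 listed genes with a window, 19.4% were higher in cKO and 20.8% lower. Of the 17 listed genes with an ERSE, 2 were higher, 3 lower and 12 not called, with a median log2 fold change of 0.0493. Of the 8 of them among the stress genes, Hspa5 and Calr fell and the other 6 were not called. The 4 chaperones that rose had no ERSE of the form searched in the window. Elements with a mismatch, or outside the window, were not searched. Of the 274 listed genes with a CARE, 45 were higher (16.4%) and 62 lower (22.6%), with a median of −0.0378. Of the 367 with a CRE, 64 were higher (17.4%) and 100 lower (27.2%), and of the 102 with the UPRE core, 14 were higher (13.7%) and 19 lower (18.6%). In the 8 genes with an ERSE-II the calls were 2 higher and 3 lower, among them Dnajb11 at 0.19 (limma adjusted p = 0.000213) beside Herpud1 at −0.46.

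Because METTL3 methylates adenosine mostly within short sequence contexts, the most common of them, GGACT, was counted in the longest annotated transcript of each gene. It occurred in 29 of the 30 stress genes and in 10890 of 11815 listed protein-coding genes, with a median of 0.977 per kb beside 1.05 per kb. The median was 1.22 per kb in the 7 genes that rose, 1.41 in the 9 that fell and 0.694 in the 14 not called. The median count per transcript was 3 in each of these groups, and the median transcript length was 2617, 2026 and 3872.5 bases. A match says nothing on whether the site was methylated, and methylation data were not analysed here.

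Other genes of the same pathways were read from lists of 128 names, of which 118 had a row. Of these, 21 were higher in cKO and 33 lower, against 17.8% and 18.8% of all genes. Under scaling to equal totals 30 were higher and 24 lower, where over all genes 3487 were higher and 2016 lower. Among 20 other chaperones and folding enzymes 7 rose and 1 fell, with a median log2 fold change of 0.0965. Txndc5, a disulfide isomerase like Pdia4, had normalized counts of 5246, 5402 and 5352 in WT and of 9102, 9495 and 8922 in cKO. It rose by nearly the same amount as Pdia4, 0.78 on the log2 scale (SE 0.0359, limma adjusted p = 2.85e-15). Txndc12, a thioredoxin-like oxidoreductase, rose by 0.23, and Sil1, a nucleotide exchange factor of BiP, rose by 0.21 (limma adjusted p = 0.00223 and 0.0246). Ppib, cyclophilin B, fell from 6165 ± 338 to 5212 ± 242 (SD, n = 3; limma adjusted p = 5.72e-05).

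Among 21 other genes of ER-associated degradation 2 rose and 9 fell, with a median of −0.0528, and among 22 of translocation and ER exit 0 rose and 10 fell (limma, 13 with an unadjusted p under 0.05 in either direction), with a median of −0.1222. Selenos, a selenoprotein of the retrotranslocation complex, fell from 3352 ± 172 to 2645 ± 119, and Edem2 rose from 2930 ± 111 to 3658 ± 83.4 (SD, n = 3; log2 fold changes −0.34 and 0.32, limma adjusted p = 2.31e-06 and 1.5e-06). Erlec1, a lectin of the degradation pathway, and the ligase gene Rnf139 each fell by 0.23 on the log2 scale, and Herpud2, a relative of Herpud1, rose by 0.14 (limma adjusted p = 0.00556, 0.000197 and 0.0011). Sec61g, a further subunit of the Sec61 channel, had 2652, 3191 and 2462 normalized counts in WT and 2259, 2219 and 2017 in cKO. Its genotypes did not overlap, with a log2 fold change of −0.35 (SE 0.0658, limma adjusted p = 0.000133). Ssr4, a subunit of the translocon-associated complex, was at −0.28, and Sec23b, of the COPII coat of vesicles leaving the ER, at −0.27 (limma adjusted p = 6.52e-06 and 1.03e-05).

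Among 32 other ATF4 targets 9 rose and 9 fell, with a median of −0.0125. Gdf15, a stress-induced secreted factor, had the largest change of all these lists, with normalized counts of 41.7, 58.3 and 63.4 in WT and of 148, 202 and 225 in cKO. Every cKO sample was above every WT sample at this low level (log2 fold change 1.80, SE 0.219, limma adjusted p = 2.72e-07). Aldh18a1, of proline synthesis, was at 0.36 (limma adjusted p = 4.53e-07), and Cebpb, the C/EBP factor, was at 0.35 (limma adjusted p = 0.000252) with overlapping samples. The autophagy receptor gene Sqstm1 fell from 223200 ± 4015 to 172646 ± 4375, and Aars, alanyl-tRNA synthetase, from 6355 ± 152 to 4865 ± 47.5 (SD, n = 3; log2 fold changes −0.37 and −0.39, limma adjusted p = 2.7e-10 and 4.16e-09). Slc7a1, a transporter of cationic amino acids, was at −0.29 (limma adjusted p = 3.36e-07). Among 23 other sensors and regulators 3 rose and 4 fell, with a median of 0.0289. Traf2, which links IRE1 alpha to kinase signalling, fell from 6274 ± 317 to 4955 ± 165, and Map3k5, the kinase ASK1 on the same branch, rose from 2784 ± 122 to 3202 ± 47.3 (SD, n = 3; limma adjusted p = 2.15e-07 and 0.000726). Nfe2l2, the redox factor NRF2 and a PERK substrate, was at −0.20, Eif2s1, which encodes eIF2 alpha itself, at −0.15, and Eif2b1, a subunit of its exchange factor, at 0.25 (limma adjusted p = 0.000462, 0.00558 and 0.00477).

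**Figure D5:**
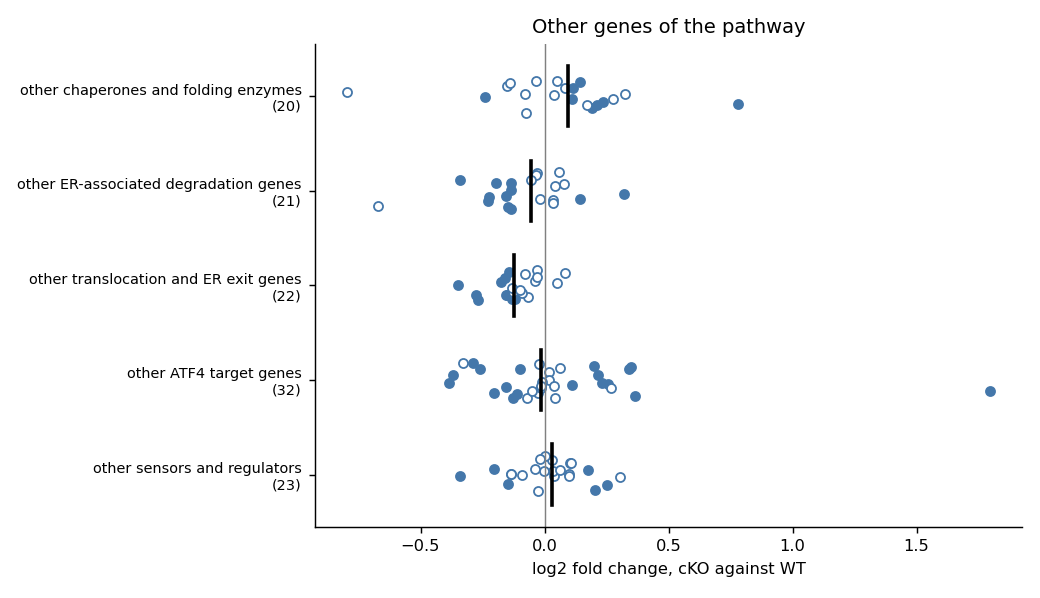
Log2 fold change of cKO against WT for 118 other genes of the pathways in 5 lists, with 1 point for each gene, filled where the limma adjusted p was under 0.05, and a black bar at the median of each list. Translocation and ER exit genes have the lowest median at −0.1222, and Gdf15 lies far to the right at 1.80 among the ATF4 targets.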

How the data were processed

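Polyadenylated RNA of sorted splenic NK cells was sequenced from 3 WT and 3 cKO samples. The authors aligned reads to GRCm38 with HISAT2 (2.0.5), counted them per gene with featureCounts 1.5.0-p3 and compared genotypes with DESeq2 (1.16.1). These versions are from the submitters' processing notes, and the methods of the study name later versions of HISAT2 and DESeq2. The strand setting is not given in the sources used here. In the sample columns the authors gave a signal, each gene's counts divided by the DESeq2 size factor of the sample. The table also holds the authors' mean, log2 fold change, its standard error, test statistic and p-values, which were not used.

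The deposited signal was used as log2(value + 1), which understates fold changes of low genes. A filter of 1 normalized count in 3 or more samples removed none of the 14490 genes. limma 3.58.1 in R 4.3.3, with a variance trend, compared cKO with WT in two-sided tests, and p-values were adjusted over the whole table (Benjamini-Hochberg). A gene was called at an adjusted p under 0.05. Genes rose or fell only where called. For each stress gene, all 20 ways of assigning the samples to genotypes were also enumerated in an exact permutation test. Ratios and sums of genes were given without a test. The scripts were tested on simulated data.

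Positions and exon lengths come from the GENCODE annotation of GRCm38, which matched 14105 of the 14490 symbols, and promoter windows from RefSeq. Results were recomputed with each sample left out, with the replicate number as a block, by limma-voom on reads taken as whole multiples of the step between values (all values were such multiples within 0.05, but that 1 step is 1 read was assumed), with totals made equal, with 0.1 as pseudocount, and with the filter dropped or set at 1 CPM in 3 samples. Groups come from the sample labels. The genes and lists were chosen with earlier results of these data known. All 32 genes were named, and, of each further list, the 3 called genes with the largest rise and the 3 with the largest fall at a mean of at least 100 normalized counts. Impact met that rule and is not described. Dnajb11, Mars, Gm43292, Gm26616, Tulp2 and the cell markers were named after their values were seen.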

Additional observations from a re-analysis of the deposited data

How the results depend on the processing

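Of the 16 called genes, 12 kept their call under every alternative, and Hspa5, Pdia3, Atf4 and Sec61b lost it under those given beside them. No called gene changed direction. Scaling to equal totals moved the counts most: 12 genes were higher, 10 chaperones were called (9 higher, 1 lower), and 1 degradation gene was called, lower; over all genes 3487 were higher and 2016 lower, against 2576 and 2731. Under it Atf6 (0.0460), Sel1l (0.0035) and Phgdh (0.0434), none of them called, were above 0. With each sample left out, 14 to 18 genes were called (6 to 10 higher, 7 to 9 lower), 5 to 8 of them chaperones (3 to 7 higher, most without WT 1, and 1 to 2 lower, 1 without WT 1, cKO 1 or cKO 3) and 1 to 2 degradation genes, all lower (1 without WT 2 or cKO 3). The log2 fold change ranged from −0.0219 to 0.0119 for Atf6, −0.0873 to 0.0672 for Phgdh, −0.0344 to 0.0382 for Dnajc3 and −0.0053 to 0.0047 for Edem1, none called. The 1 CPM filter removed Chac1, after which the median of the ATF4 targets was −0.0062, and Pdia6 was called (limma adjusted p = 0.0496). Pseudocount, no filter and limma-voom changed no call among the 30 genes. Samples shared replicate numbers, but same-numbered samples correlated at −0.0239, 0.116 and 0.0447 in their deviations and not every sample correlated best with its own number; with the replicate block 16 genes were again called, and 5543 of all genes against 5307. TMM factors, edgeR and DESeq2 were not run. Low counts limit Chac1 and Trib3.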
